A study of Mus musculus with 8 samples.

Results

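Reelin signalling was followed in newborn mouse striatum through 7 genes: Reln, which encodes the secreted ligand, its receptors Vldlr and Lrp8, the intracellular adaptor Dab1, the kinases Fyn and Src, and Pafah1b1, which encodes Lis1. All probe sets annotated to one of these symbols were taken and kept separate, which gave 25 of the 45037 probe sets on the array. Probe sets were picked by gene symbol and by no measured value, but the 7 genes were chosen with earlier results of these data known. Each of 8 Affymetrix arrays held striatal RNA of 1 BALB/c mouse at postnatal day 0, from 3 wild type mice, 1 mouse heterozygous for Ctip2 and 4 Ctip2 null mice. Ctip2, now named Bcl11b, is a transcription factor gene active in medium spiny neurons, which project out of the striatum. The tissue was a small punch from the middle of the striatum, so every value averages over all cell types in it. The sources used here do not say which part of Ctip2 the null allele removes. Values are log2 expression values, on which a step of 1 is a doubling, and they compare 1 probe set between arrays, not the level of one gene with another.

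Reelin is a large extracellular glycoprotein that guides the placement of migrating neurons and later shapes dendrites and synapses. It binds the lipoprotein receptors VLDLR and ApoER2, the product of Lrp8, whose tails carry the adaptor Dab1. Clustering of the receptors leads Fyn and Src to phosphorylate Dab1, which passes the signal to Crk adaptors, PI3 kinase and, through Lis1 and dynein, to the microtubules that move the nucleus.

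Before the reelin genes, the arrays themselves were compared. On all 4 Bcl11b probe sets every null array lay below every wild type array, and the one annotated to the reference mRNA read 11.32 to 11.49 in wild type, 11.33 in the heterozygote and 9.83 to 10.15 in null striatum. A probe outside the removed part would not check the genotype. Ttr, the choroid plexus transcript for transthyretin, stood highest in wild type 1 (13.34) and null 2 (13.44) and ranged from 7.11 to 11.44 in the other arrays. The SD of all log2 values of an array ranged from 1.90 to 2.05 over null arrays and was highest, at 2.06, for the heterozygote, while wild type 1, 2 and 3 had 1.97, 1.84 and 1.87, so every null array had a larger spread than wild type 2 and 3. Of 9 medium spiny neuron markers, 4 fell (Drd1, Pde10a, Ppp1r1b and Gpr6), where 0.676% of all genes, 1 probe set each, were called lower. The mean level of the 9 was 9.29 to 9.72 in wild type and 8.71 to 9.02 in null striatum. The other 5 had no call: Penk and Tac1 differed by 0.21 and 0.14, and Drd2, Foxp1 and Rgs9 by -0.21, -0.22 and -0.28. Of 8 markers of olfactory bulb interneurons and dorsal ganglionic eminence, 4 rose (Dlx1, Dlx2, Calb2 and Tshz1), where 2.38% of all genes were called higher. The mean level of the 8 was 6.64 to 6.71 in wild type and 7.46 to 7.69 in null striatum. The other 4 had no call: Th and Sp8 differed by 1.39 and 0.14, and Pax6 and Gsx2 by -0.30 each.

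Reln, the ligand gene, fell in null striatum on the probe set annotated to its reference mRNA (1449465_at). Its log2 value was 11.10, 10.77 and 10.47 in wild type 1 to 3 and 9.07, 8.72, 9.63 and 9.43 in null 1 to 4. All null arrays lay below all wild type arrays, and the gap between the groups was close to the whole range within the null arrays. Group means were 10.78 ± 0.31 (SD, n = 3) and 9.21 ± 0.40 (SD, n = 4), 2.97-fold lower in null, a log2 difference of -1.57 with a 95% interval of -2.08 to -1.06 (limma, adjusted p = 0.00936). The heterozygote read 11.15, slightly above the highest wild type array. In RNA from a tissue punch, fewer Reln-expressing cells and less Reln RNA in each cell cannot be told apart.

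The second Reln probe set (1458020_at), annotated to a single GenBank cDNA, showed none of this. It read 6.03, 6.29 and 6.07 in wild type, 5.93 in the heterozygote and 6.11, 5.92, 6.13 and 6.42 in null striatum. The groups overlap, and null 4 is the highest and null 2 the lowest of all 8 arrays. The difference was 0.01, with a 95% interval of -0.31 to 0.34 (limma, adjusted p = 0.956), which does not include the fall seen on the other probe set. The mean signal of 1458020_at over wild type and null arrays was 6.14, below 6.30, the median of all probe sets. A fall may not show at this level. The account of Reln therefore rests on 1 probe set.

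The fall of Reln kept its direction in every alternative run and kept its call in all but one. With the SD of each array as a covariate the difference was -1.65 and the adjusted p was 0.0625 (limma). Without the arrays of highest Ttr, wild type 1 and null 2, it was -1.25 with an adjusted p of 0.0458, and with single arrays left out it lay between -1.72 and -1.41.

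Cells known for strong reelin expression at birth are the Cajal-Retzius cells of the cortical surface, and 8 of their markers were compared between the groups. Their mean log2 level was 5.03 to 5.28 in wild type and 5.16 to 5.30 in null arrays, which overlap. Of the 8, 0 fell and Cacna2d2, a calcium channel subunit gene, rose by 0.95. All but Cacna2d2 and Trp73 had a mean signal below 6.30, the median of all probe sets. At such low signal a fall may not show. Trp73, a defining factor of these cells, read 6.40, 6.50 and 6.74 in wild type and 6.21, 6.32, 6.03 and 6.33 in null striatum, without overlap and without a call (limma, difference -0.32, adjusted p = 0.233). Tbr1, a cortical transcription factor that induces Reln there, had means of 3.14 and 3.13 in wild type and null arrays. This is percentile 1.4 of all probe sets by mean signal, where a fall could hardly show. Genes of medial eminence interneurons, another reelin-expressing class, had a mean level of 8.10 to 8.41 in wild type and 8.58 to 8.98 in null arrays, and 1 of 7, Lhx6, rose. The members differed in direction: Maf, Lhx8 and Sox6 differed by 1.66, 1.34 and 0.61 without a call, and Npy, Sst and Nkx2-1 by -0.65, -0.29 and -0.16, with all null arrays below all wild type arrays for Npy. The part of any of these cell types in the Reln result was not tested.

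**Figure D1:**
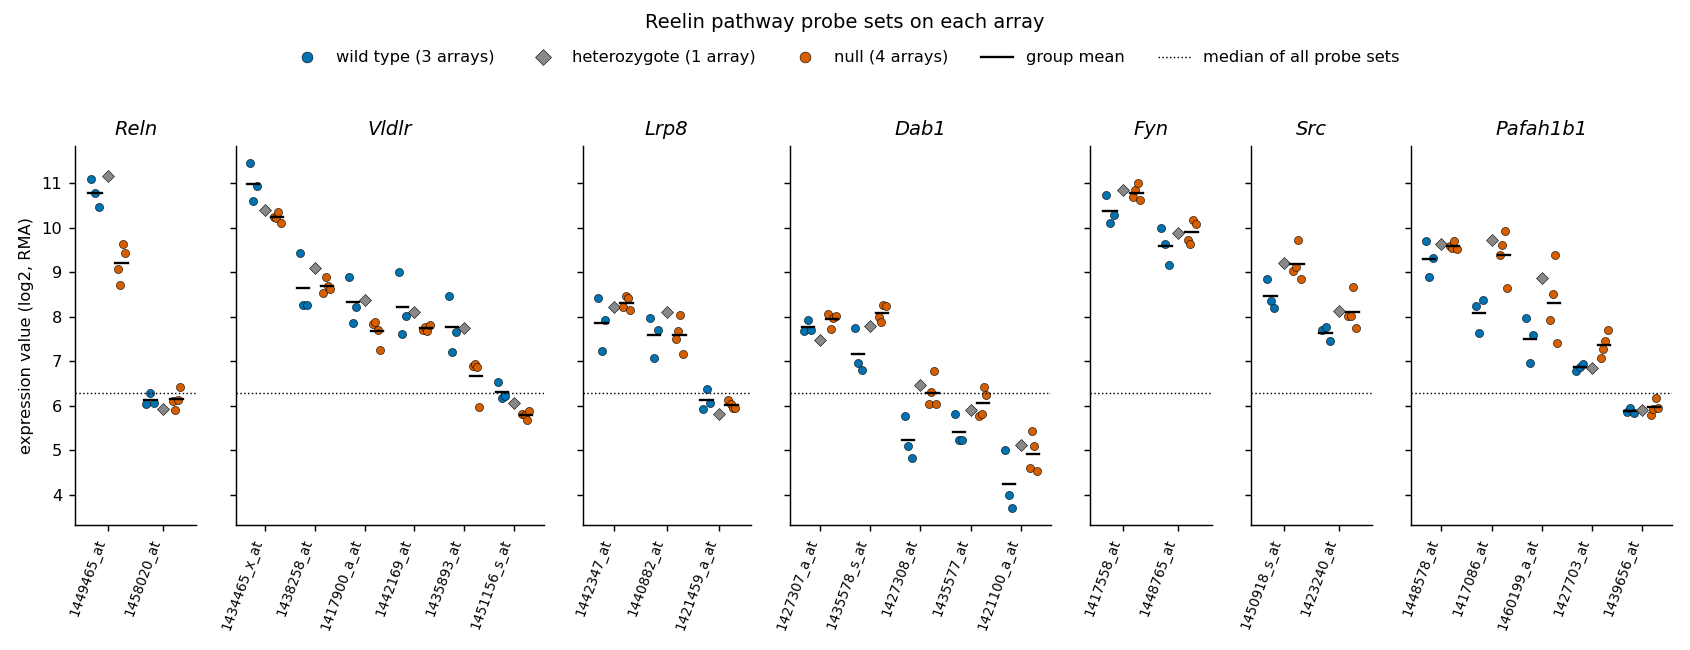
Log2 expression value (y axis) of each of the 25 probe sets (x axis, grouped by gene and ordered by mean signal) on every array, with circles for wild type (blue) and null (orange), grey diamonds for the heterozygote and black bars for group means. The first Reln probe set shows 3 wild type values of 10.47 to 11.10 above 4 null values of 8.72 to 9.63, while the second lies near the dotted median of all probe sets in both groups.

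The upstream sequence of Reln is shown because Reln is the only member called lower. It is the 250 bases before the annotated start, chr5:22344706-22344955 on the minus strand of GRCm38.p6, from RefSeq, written 5′ to 3′ with GC boxes in capitals.
Reln: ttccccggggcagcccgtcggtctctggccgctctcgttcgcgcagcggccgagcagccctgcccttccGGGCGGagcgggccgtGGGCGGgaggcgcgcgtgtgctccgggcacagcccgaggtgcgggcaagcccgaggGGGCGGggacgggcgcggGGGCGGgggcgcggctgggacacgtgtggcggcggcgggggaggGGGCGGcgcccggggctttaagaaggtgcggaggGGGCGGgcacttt
The GC box, the letters GGGCGG on either strand, is the sequence read by Sp1-type factors and occurred 6 times here. At least 1 copy was found in 32.7% of all 32851 RefSeq windows of the same length, and 6 or more in 0.886% of them. The window is 80.0% G and C and holds 37 CG pairs, against a median of 6.0 over all windows. Of the other member windows, that of Src and 1 of Dab1 held 40 each, at 82.8% and 78.0% G and C. The rest held fewer than that of Reln. Among the 11 windows of the 7 genes, 5 held a GC box: those of Reln, Fyn and Src and 1 window each of Vldlr and Dab1, with 1 copy in each of the latter 4 genes. The letters TGACCA on either strand, known as a motif of Bcl11a, the paralogue of Bcl11b, were in 11.4% of all windows and in 1 of the 11, at Lrp8, and not in that of Reln. These are matches of letters in a short window and not measured binding.

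Of the receptor genes, Vldlr, whose product serves migrating neurons, passed the threshold on 0 of 6 probe sets. Of its 6 probe sets, 5 differed downwards, 4 of them at an unadjusted p under 0.05, and on 3 all null arrays lay below all wild type arrays. Over the whole array 0.453% of probe sets were called lower, 8.74% were lower at an unadjusted p under 0.05 and 8.85% had all null arrays below. The probe set of highest signal (1434465_x_at) read 11.45, 10.59 and 10.93 in wild type, 10.39 in the heterozygote and 10.24, 10.22, 10.36 and 10.11 in null striatum, a difference of -0.76 with a 95% interval of -1.18 to -0.34 (limma, adjusted p = 0.0721). Its suffix marks a probe set some of whose probes may match other transcripts.

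The largest Vldlr difference was on 1435893_at, with 8.47, 7.20 and 7.67 in wild type, 7.76 in the heterozygote and 6.90, 6.93, 6.86 and 5.98 in null striatum. Null 4 stood apart from the other null arrays there. The difference was -1.11 with a 95% interval of -1.81 to -0.41 (limma, adjusted p = 0.107). The third with no overlap, 1451156_s_at, is a dim probe set, at 6.54, 6.18 and 6.21 in wild type, 6.07 in the heterozygote and 5.82, 5.79, 5.69 and 5.89 in null striatum, a difference of -0.51 (adjusted p = 0.0791). The other 3 overlapped between groups, with differences of -0.65 on 1417900_a_at, -0.47 on 1442169_at and 0.04 on 1438258_at (adjusted p = 0.200, 0.339 and 0.942).

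Wild type 1 gave the highest value of all 8 arrays on each of the 6 Vldlr probe sets, and it is also the wild type array of highest Ttr. Without it the Vldlr differences were smaller, at -0.53, -0.76 and -0.40 on the 3 probe sets that separated the groups, and 1438258_at differed by 0.43. Without wild type 2 the probe set of highest signal passed, at -0.96 (adjusted p = 0.0487), and with the array SD as a covariate 1435893_at passed, at -1.75 (adjusted p = 0.0219). The part of choroid plexus RNA in these values was not tested.

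Lrp8, the gene of the receptor ApoER2, which also acts at synapses, gave no call and no common direction. Its brightest probe set (1442347_at) read 8.43, 7.23 and 7.92 in wild type, 8.21 in the heterozygote and 8.23, 8.47, 8.42 and 8.14 in null striatum. Wild type 1 lay among the null arrays and wild type 2 stood lowest. The differences were 0.45, 0.01 and -0.11 on its 3 probe sets, with 95% intervals of -0.09 to 0.99, -0.54 to 0.55 and -0.42 to 0.19 (limma, adjusted p = 0.314, 0.989 and 0.633), so the interval of the first reaches close to a doubling. With the array SD as a covariate they were 0.05, -0.48 and -0.01. Whether the Vldlr and Lrp8 differences themselves differ was not tested.

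Dab1, the adaptor that reelin signalling phosphorylates, was higher in null than in wild type means on all 5 of its probe sets, and 0 passed after adjustment. The clearest were 1435578_s_at and 1427308_at. The first read 7.74, 6.97 and 6.81 in wild type, 7.80 in the heterozygote and 7.99, 7.89, 8.26 and 8.24 in null striatum. On both, all null arrays lay above all wild type arrays, with wild type 1 nearest to them. The second read 5.77, 5.11 and 4.82 in wild type, 6.48 in the heterozygote and 6.04, 6.32, 6.78 and 6.04 in null striatum.

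On 1435578_s_at the difference was 0.92 with a 95% interval of 0.44 to 1.40 (limma, adjusted p = 0.0614), and on 1427308_at it was 1.06 with an interval of 0.51 to 1.62 (adjusted p = 0.0599). The other 3 Dab1 probe sets, whose groups overlap, differed by 0.65, 0.68 and 0.17 (adjusted p = 0.147, 0.267 and 0.443). The last of these, 1427307_a_at, is the brightest of the gene and the one on which the heterozygote, at 7.49, lay below every other array, whereas on the other 4 it lay nearer to the null mean. Without wild type 1 both clear probe sets passed, at 1.20 and 1.33 (adjusted p = 0.00826 and 0.0182), and 1427308_at also passed without null 4, at 1.15 (adjusted p = 0.0465). With the array SD as a covariate the differences were 0.72 and 0.61 (adjusted p = 0.363 and 0.311).

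Fyn and Src, the kinases that phosphorylate Dab1, were higher in null means on all 4 probe sets without a call. Src on 1450918_s_at read 8.86, 8.35 and 8.20 in wild type, 9.21 in the heterozygote and 9.02, 9.12, 9.72 and 8.84 in null striatum, a difference of 0.71 (limma, adjusted p = 0.147), and its other probe set differed by 0.46 (adjusted p = 0.248). Wild type 1 reached just above null 4, which is the only overlap between those groups. Fyn read 10.74, 10.11 and 10.28 in wild type, 10.84 in the heterozygote and 10.69, 10.84 and 10.62 in null 1, 2 and 4 on 1417558_at, with null 3 higher still, a difference of 0.41 with a 95% interval of 0.03 to 0.79 (adjusted p = 0.227). Its second probe set differed by 0.30 (adjusted p = 0.417). Null 3 gave the highest of all 8 values on each of the 4 probe sets, and its array SD was the highest of the null arrays. With the array SD as a covariate the differences were 0.29 and 0.20 for Src and 0.12 and 0.18 for Fyn, in the same order.

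Pafah1b1 encodes Lis1, the dynein regulator whose loss in people causes a smooth cortex. It was the only member with a call upwards, on 1 of 5 probe sets, and all 5 had a higher mean in null striatum. The called probe set (1417086_at) read 8.24, 7.64 and 8.37 in wild type, 9.73 in the heterozygote and 9.38, 9.62, 9.92 and 8.65 in null striatum. The groups did not overlap, null 4 lay closest to wild type, and the heterozygote lay within the null range. The difference was 1.31, or 2.47-fold, with a 95% interval of 0.67 to 1.95 (limma, adjusted p = 0.0491).

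The other Pafah1b1 probe sets differed less. On 1427703_at the groups also separated, at 6.78, 6.87 and 6.94 in wild type against 7.07, 7.27, 7.46 and 7.71 in null striatum, but here the heterozygote, at 6.85, read as wild type and the difference was 0.51 (adjusted p = 0.135). The remaining 3 overlapped, with differences of 0.80, 0.28 and 0.10 (adjusted p = 0.302, 0.381 and 0.653). The call on 1417086_at was lost without any single array but null 4, with adjusted p values of 0.0551, 0.188 and 0.113 without wild type 1, 2 or 3 and 0.110, 0.144 and 0.0932 without null 1, 2 or 3. It was also lost with the array SD as a covariate (0.77, adjusted p = 0.253), with the heterozygote among the controls (0.90, adjusted p = 0.535), without both wild type 1 and null 2 (adjusted p = 0.144) and with arrays centred on their median (1.37, adjusted p = 0.0882).

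**Figure D2:**
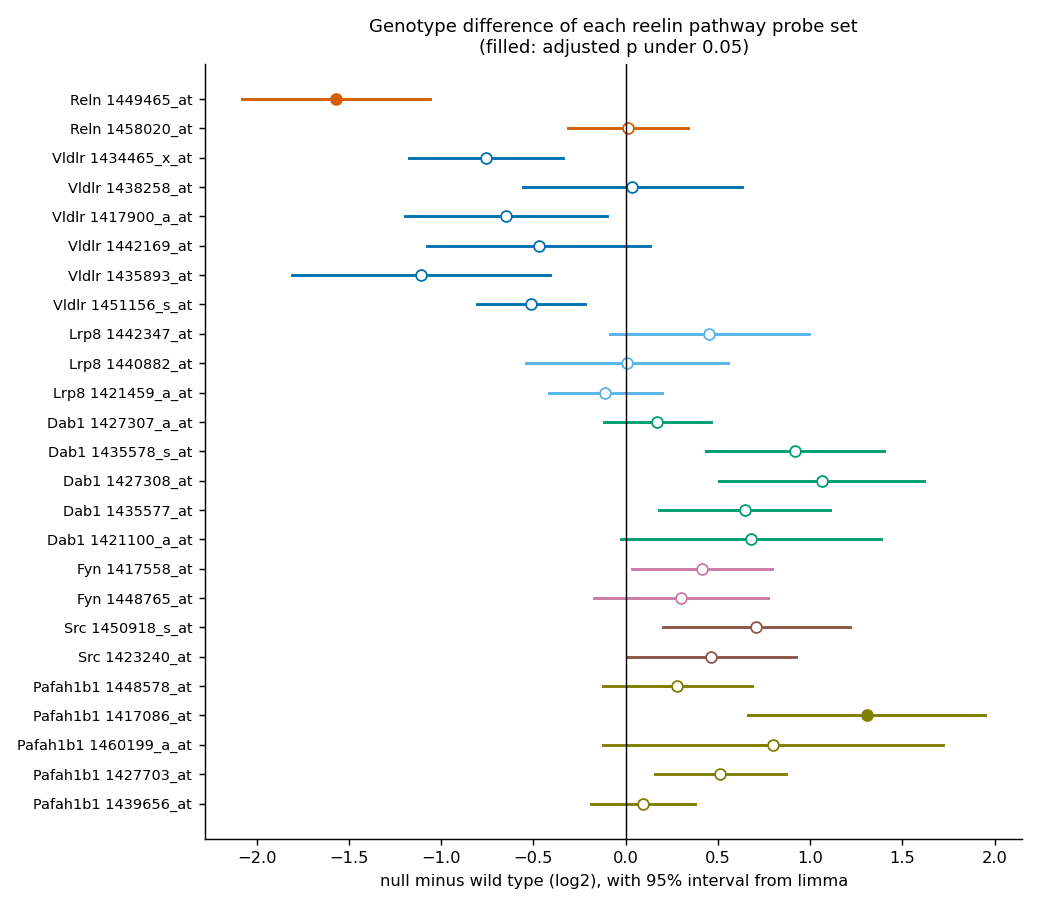
Difference between null and wild type means (x axis, log2) for each of the 25 probe sets (y axis), with the 95% interval from limma over 3 wild type and 4 null arrays; filled points have an adjusted p under 0.05. The called probe sets are 1 of Reln at -1.57 and 1 of Pafah1b1 at 1.31, and 5 of 6 Vldlr points lie left of 0 while all Dab1, Fyn, Src and Pafah1b1 points lie right of it.

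Counted over all 25 probe sets, 1 was lower and 1 was higher at an adjusted p under 0.05, where 0.453% of all probe sets on the array were lower and 1.87% higher. With 1 probe set each way, the count says little beyond the probe sets named. All null arrays lay below all wild type arrays on 4 probe sets, of Reln and Vldlr, and above them on 4, of Dab1 and Pafah1b1, or 16.0% each way, where 8.85% and 7.7% of all probe sets did. At an unadjusted p under 0.05, 5 were lower and 8 higher (20.0% and 32.0%, against 8.74% and 10.9% of all probe sets, or 19.6% in both directions together). A SAM d score beyond 2, the kind of score the study used, picked 5 lower and 7 higher, where 12.7% and 10.3% of all probe sets passed. Probe sets of 1 gene are not independent. The median difference of the 25 was 0.28, against -0.08 over all probe sets. It was 0.011 over probe sets above the median level, where 18 of the 25 lie.

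The heterozygote differed in position between the members. Its value was closer to the null than to the wild type mean on 16 of the 25 probe sets, among them 4 of 5 for Dab1, both for Fyn, both for Src and 3 of 5 for Pafah1b1. For Lrp8 this held on 3 of 3, for Vldlr on 2 of 6 and for Reln on 0 of 2. A position between means carries little where the means are close, as on the dim Reln and Lrp8 probe sets. It is a single animal, and its array had the largest SD of all 8.

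A wider set of 76 genes of reelin signalling was divided by role, and 69 of them had a probe set with 1 symbol. Each gene was represented by its brightest probe set. Of the 69, 5 rose, 0 fell and 64 did not pass, that is 7.25% higher where 2.38% of all 18193 genes were higher and 0.676% lower. The median difference was 0.21, against -0.08 over all genes, and 44 of the 69 (63.8%) had a higher mean in null striatum, against 39.4% of all genes. These baselines depend on signal level. With the fit limited to probe sets above the median level, their median difference was 0.011 and 4.07% of them were higher. In that run 7 of the wider genes rose. With single arrays left out between 2 and 10 of the wider genes rose: 9, 2 and 2 without wild type 1, 2 or 3, and 2, 2, 4 and 10 without null 1, 2, 3 or 4. The share of all probe sets called higher moved alongside. In the same order it was 3.85%, 0.613% and 0.466%, and 0.719%, 0.626%, 1.15% and 3.8%. Without null 3 or null 4, 1 gene fell. With the array SD as a covariate 2 rose, and with the heterozygote among the controls 1, where 0.42% and 0.244% of all probe sets did.

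Among co-receptors and related lipoprotein receptors 2 of 12 rose, both ephrin B genes. Ephrin B proteins bind reelin and cooperate with its receptors. Efnb3 read 9.45, 9.10 and 9.53 in wild type, 9.87 in the heterozygote and 10.80, 10.90, 10.89 and 10.62 in null striatum, a 1.44 rise (limma, adjusted p = 0.00182) that passed in every alternative run. Efnb2 rose by 1.17, reading 9.18, 8.37 and 8.51 in wild type, 9.74 in the heterozygote and 10.16, 9.81, 9.60 and 9.86 in null striatum (adjusted p = 0.0220). Its call was lost without wild type 2 or 3 (0.0949 and 0.108) or null 1 or 2 (0.0648 and 0.0680), with the array SD as a covariate (0.158) and with the heterozygote among the controls (0.272). Of the 3 other Efnb2 probe sets, 0 were called.

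Among adaptors and kinases downstream of Dab1, 1 of 21 rose. This was Cdh2, the gene of N-cadherin, the adhesion protein that reelin acts on through Rap1 during migration. It rose by 0.81, from 9.78 ± 0.25 (SD, n = 3) to 10.60 ± 0.07 (SD, n = 4), with the heterozygote at 10.11 (limma, adjusted p = 0.0196). Without wild type 2 or 3 or null 1 or 2 its adjusted p was 0.0633, 0.0695, 0.0625 and 0.0698. It was 0.110 with the array SD as a covariate, 0.0638 with the heterozygote among the controls and 0.0611 without both wild type 1 and null 2. The 1 other Cdh2 probe set was not called. The largest differences of the list were those of Crkl, an adaptor that binds phosphorylated Dab1, at 0.99 (adjusted p = 0.0528), and Pik3ca, a PI3 kinase subunit gene, at 0.96 (adjusted p = 0.0577), both named after their values were seen. Both had all null arrays above all wild type arrays, and the heterozygote lay nearer to the null mean, at 9.04 and 8.73.

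Among Lis1 partners and dynein genes 2 of 11 rose. Dync1i1, a dynein intermediate chain gene, read 7.77, 8.06 and 7.85 in wild type, 9.29 in the heterozygote and 9.08, 9.43, 9.48 and 9.07 in null striatum. The heterozygote thus lay inside the null range. The rise was 1.37 (limma, adjusted p = 0.00265), and with the heterozygote among the controls the adjusted p was 0.256. Dcx, the gene of doublecortin, a microtubule protein of migrating neurons, rose by 0.66 (adjusted p = 0.0497), and 2 of its 3 other probe sets were called higher. On its brightest probe set the means were 11.14 ± 0.12 (SD, n = 3) and 11.80 ± 0.21 (SD, n = 4). Its call was lost without any single array but null 4, at 0.0557, 0.183 and 0.131 without wild type 1, 2 or 3 and 0.105, 0.129 and 0.0785 without null 1, 2 or 3. With the array SD as a covariate the Dcx difference was 0.50 (adjusted p = 0.248), with the heterozygote among the controls 0.57 (0.195), and the call was also lost without both wild type 1 and null 2 (0.132), with arrays centred on their median (0.0694), after quantile normalization (0.0651) and with the replicate block (0.0531).

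The remaining lists gave 0 calls. In the list of ligand processing, the protease gene Plat differed by 0.63 (limma, adjusted p = 0.0985) and the protease inhibitor gene Timp3 by 0.51 (adjusted p = 0.269). Of other ligands of the same receptors, Lpl, the gene of lipoprotein lipase, differed by -0.91 (adjusted p = 0.082) and Apoe by 0.76 (adjusted p = 0.101). In the list of receptor and Dab1 turnover, Mylip, a ligase that degrades VLDLR and ApoER2, differed by 0.37 (adjusted p = 0.340) and Cul5, part of the ligase that degrades Dab1, by -0.33 (adjusted p = 0.407). Of the other Src family kinases and their regulators, Fgr differed by -0.47 (adjusted p = 0.148) and Ptpra by 0.40 (adjusted p = 0.353).

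**Figure D3:**
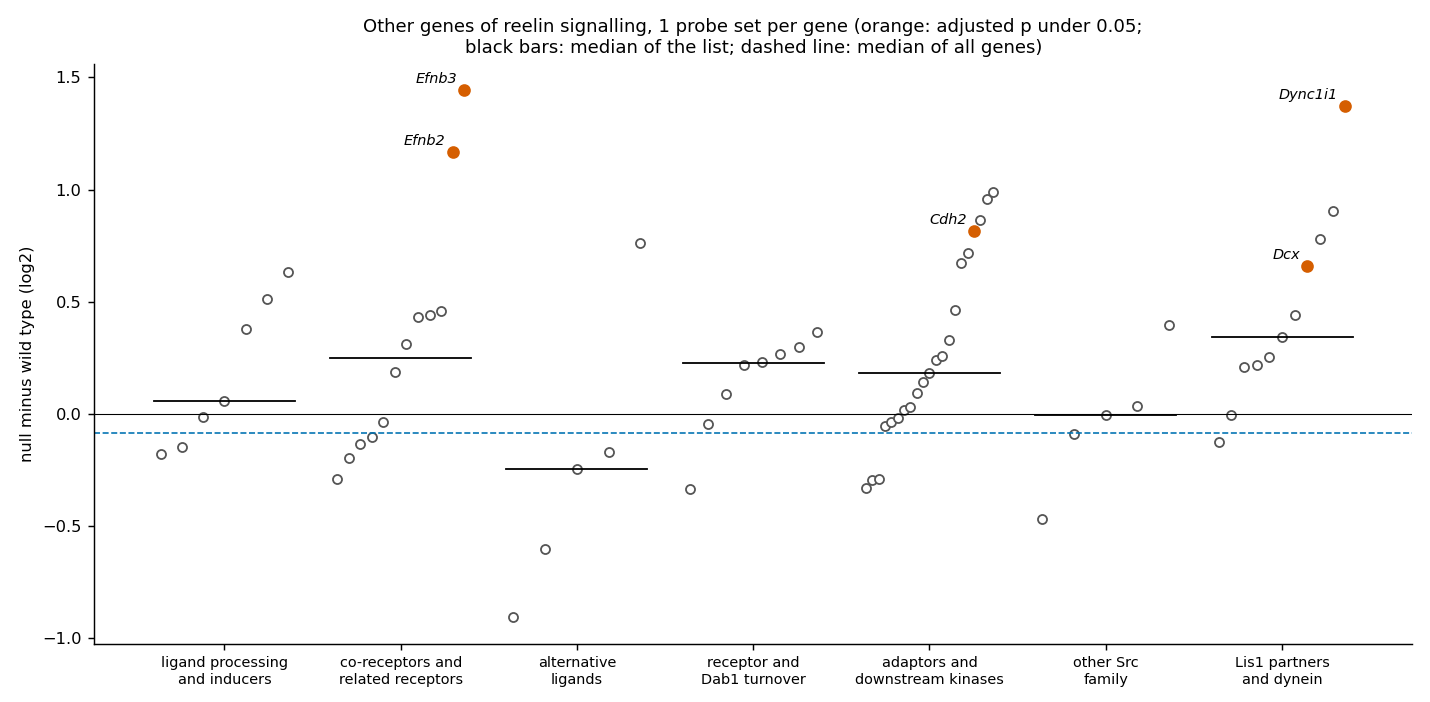
Difference between null and wild type means (y axis, log2) for 69 further genes of reelin signalling, 1 point per gene, by role (x axis); orange points have an adjusted p under 0.05, black bars are list medians and the dashed line is the median of all genes. The named points are Efnb3, Efnb2, Cdh2, Dync1i1 and Dcx, at 0.66 to 1.44, and no point below 0 passed.

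The genes nearest to the pattern of Reln over the arrays were sought by distance. For each of 16310 genes the 8 values were centred on their own mean, and the root mean square distance to the centred values of the brighter Reln probe set was taken. The 6 nearest were Gng7 (0.195), Rasgrp1 (0.220), Ngef (0.230), Tuba4a (0.254), Lamp5 (0.261) and Tgfa (0.277), where the centred Reln values have a root mean square of 0.889. Because they were picked for this likeness, their values are given as a description. Gng7, a G protein subunit gene of striatal cyclic AMP signalling, read 10.12, 9.91 and 9.64 in wild type, 9.98 in the heterozygote and 8.34, 7.80, 8.28 and 8.61 in null striatum. All 6 were, like Reln, lowest in null 2, which is also the null array of highest Ttr. Rasgrp1, which encodes a calcium-regulated Ras exchange factor, read 7.21 there. Ngef, an exchange factor gene downstream of Eph receptors, had wild type and null means of 10.82 and 9.29, and Tgfa, a ligand gene of the EGF receptor, 9.87 and 8.51. Tuba4a, an alpha tubulin gene, and Lamp5, a neuronal membrane protein gene, had means of 9.82 and 8.24, and of 7.79 and 5.91. On all 6 the heterozygote lay with the wild type arrays.

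**Figure D4:**
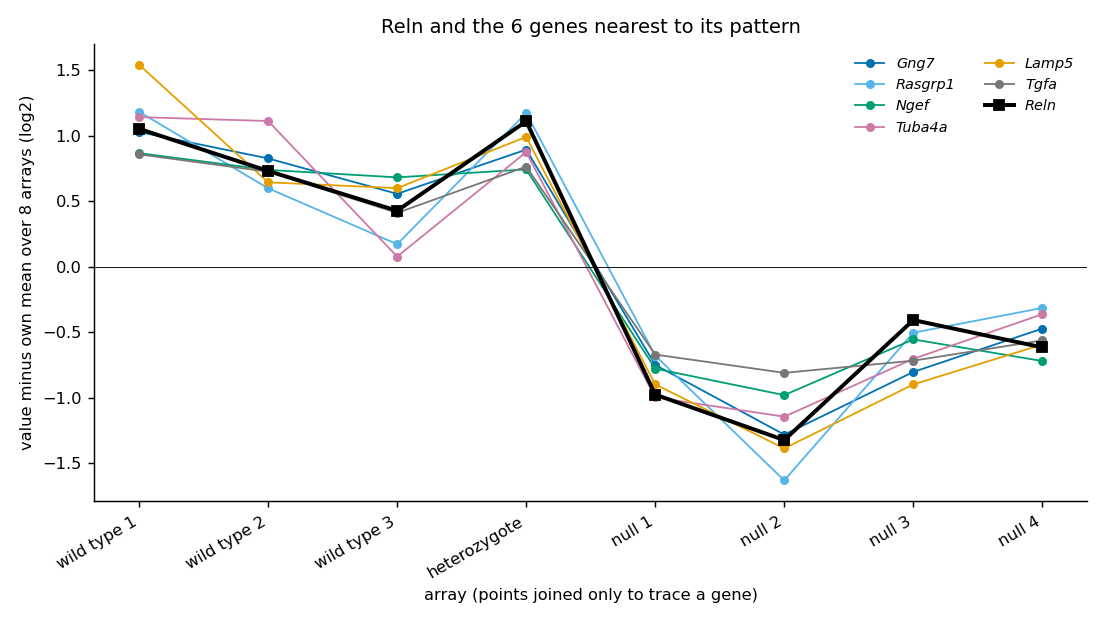
Centred log2 values (y axis, value minus the gene's mean over the 8 arrays) of Reln in black and of the 6 nearest genes in colour on each array (x axis); lines join the values of 1 gene. All 7 genes are above 0 in wild type and heterozygote arrays and below 0 in null arrays, and all 7 are lowest in null 2.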

How the data were processed

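The authors' deposited log2 values, 1 per probe set, come from the RMA function of Bioconductor, per the design text of the series and the submitters' processing notes. The sources used here do not give its version, any filter or which arrays it normalized together. Values were used as deposited. Of 45037 probe sets, 34945 carry 1 symbol in the platform annotation, 932 several and 9160 none. Wild type arrays (3) and null arrays (4) entered limma 3.58.1 in R 4.3.3 (lmFit, eBayes), with Benjamini-Hochberg adjustment over all probe sets and a threshold of 0.05; the study itself used SAM scores, run here as an alternative. The genes it selected were not analysed here. The fit was tested on simulated data. The heterozygote entered only named alternatives and the distance to Reln. The limma p-values set the difference between groups against the spread of arrays within groups, 1 animal per array. The number of arrays limits precision.

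Members and lists were chosen with earlier results of these data known. Named were all member probe sets, Bcl11b, wider pathway genes that passed or else the 2 of largest difference in a list, and the 6 genes nearest to Reln without predicted models and clone names. Of the 76 wider pathway genes listed, 7 were not analysed here. Alternatives left out arrays, moved the heterozygote, added a replicate block or the array SD, rescaled arrays, dropped dim probe sets, or changed the test or adjustment. Figures used matplotlib 3.10.9.

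Mean levels of the other marker lists, in which 0 genes passed, were in wild type and null arrays 5.32 to 5.35 and 5.10 to 5.27 for cortical projection neurons, 6.17 to 6.94 and 5.67 to 7.13 for choroid plexus, and 5.42 to 5.63 and 5.46 to 5.66 for blood. They were 7.14 to 7.22 and 7.39 to 7.92 for microglia, without overlap, and 7.14 to 7.37 and 7.26 to 7.76 for endothelium and pericytes. For astrocytes and radial glia they were 8.37 to 8.67 and 8.49 to 8.84, and for the oligodendrocyte lineage 7.69 to 8.02 and 7.75 to 8.05.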

Additional observations from a re-analysis of the deposited data

Results flagged for a closer look

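On the Vldlr probe set 1435893_at, null 4 read 5.98 and the nearest null array 6.86, a gap of 0.928 of the range of the 4 null arrays, above Dixon's critical value for 4 samples. Without null 4 the Vldlr difference was -0.88 in place of -1.11. It was 1 of 30 probe sets examined in this way, and chance alone gives about 1 in 20.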

How the results depend on the processing

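The brighter Reln probe set was lower in null striatum in each alternative, between -1.72 and -1.41 with single arrays left out, and lost its call only with the array SD as a covariate, at -1.65 (adjusted p = 0.0625). Member probe sets called higher, 1 as reported, numbered 0 to 2 with single arrays left out. They numbered 0 with the heterozygote among the controls, with the array SD, with arrays centred on their median or with 1 probe set per gene, where the called Pafah1b1 probe set does not represent its gene. They numbered 2 without dim probe sets or with an intensity trend, 4 with array weights and 7 by SAM score. The share of all probe sets called higher was 4.07% and 1.96% in the first 2 of these runs. It was 5.96% with array weights and 10.3% by SAM score. Member probe sets called lower, 1 as reported, numbered 1 to 2 with single arrays left out, 2 after quantile normalization, 3 with array weights and 5 by SAM score. Of all probe sets 0.706%, 2.14% and 12.7% were lower in the last 3 of these runs. Wider pathway genes called higher, 5 as reported, numbered 2 to 10 with single arrays left out, 1 with the heterozygote among the controls, 2 with the array SD, 3 without wild type 1 and null 2, 14 with array weights, 23 by SAM score and 9 where any probe set could count. Those called lower, 0 as reported, numbered 0 to 1 with single arrays left out, 1 after quantile normalization, 2 with array weights and 5 by SAM score. Same-numbered wild type and null arrays did not deviate together (r = -0.252, -0.309 and -0.168). Differently numbered ones gave r from -0.415 to 0.372. These values show no sign of pairing by number, but they cannot exclude a pairing of the samples. With the replicate block, on 3 arrays of each group, 2 member probe sets and 10 wider genes were called higher, as were 3.77% of all probe sets. In that run Reln differed by -1.64 (limma, adjusted p = 0.00777), and the dim Reln probe set 1458020_at differed by -0.077. The probe sets that changed sign were not called in any of these settings. With single arrays left out, 1458020_at lay between -0.077 and 0.095, Vldlr 1438258_at between -0.16 and 0.43, Lrp8 1440882_at between -0.25 and 0.20 and Lrp8 1421459_a_at between -0.20 and 0.019. With the heterozygote among the controls Vldlr 1438258_at was -0.078 and Lrp8 1440882_at -0.12, with the array SD they were -0.37 and -0.48 and Pafah1b1 1460199_a_at was -0.079, and after quantile normalization they were -0.14 and -0.095. With array weights Reln 1458020_at was -0.015 and Lrp8 1440882_at -0.050. For these changes the cause was not tested. With so few arrays, dim probe sets, among them 3 of the 5 of Dab1, carry the least signal over background.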
